A study of Homo sapiens with 4 samples.

Results

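The miRNAs examined here lie within small nucleolar RNA (snoRNA) or small Cajal body RNA (scaRNA) genes. They were chosen by annotation, from a list of 10 mature miRNA names, and the list was drawn up when the levels and the exposed-unexposed differences of these libraries were already known. The values of that contrast are therefore given as a description. Of the 10 names, 8 were among the 2656 mature miRNAs counted, namely hsa-miR-664a-3p, hsa-miR-664a-5p, hsa-miR-664b-3p, hsa-miR-664b-5p, hsa-miR-1248, hsa-miR-1291, hsa-miR-6516-3p and hsa-miR-6516-5p. hsa-miR-3607-3p and hsa-miR-3607-5p were not analysed here. The label was checked against the annotation. Each of the 8 lay on the same strand and entirely inside a snoRNA or scaRNA gene of GENCODE 29, so that the label held for all of them.

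Small RNA libraries were made from cortical interneurons, the inhibitory nerve cells of the cortex, which had been differentiated in culture from H1, a single human embryonic stem cell (hESC) line. A set of 2 cultures was kept for 7 days in neuronal maturation medium with ethanol at about 50 to 100 mM and then cultured further without ethanol, and 2 cultures went without ethanol (n = 2 libraries per group). The cells were a culture model of one genetic background, with no matched donor or animal. Counts assigned to miRNAs summed to between 22223060 and 24858230 in the exposed and between 12100425 and 13941795 in the unexposed libraries, a mean 1.81 times higher with exposure, so that depth and exposure cannot be told apart. Neuronal marker miRNAs, among them miR-124-3p and miR-9-5p, summed to between 208423 and 286438 CPM, the count scaled to a fixed library total of 10 to the power 6. The 6 stem cell markers summed to between 2.42 and 3.89 CPM, and those of blood, liver, oligodendrocytes, mesenchymal cells and muscle to between 0.0777 CPM (blood) and 402 CPM (muscle). miRNAs alone do not separate interneurons from other neurons, and in bulk cultures fewer cells of a type and less RNA per cell cannot be told apart.

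snoRNAs guide the chemical modification of other RNAs. Those of the H/ACA type fold into a pair of hairpins, end in a short ACA box just before the 3' end, and direct the conversion of uridine to pseudouridine in ribosomal RNA. scaRNAs do the same for spliceosomal RNAs in Cajal bodies. Most are released from introns of host genes. Fragments of some H/ACA snoRNAs have been found bound to Argonaute proteins, which carry miRNAs to their targets, and they can arise without the Drosha complex that cuts ordinary miRNA precursors. They have thus been given miRNA names.

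The 8 mature sequences were taken from RefSeq (GRCh38.p14), where all 8 were found, and are shown to let their seeds and 3' ends be compared. The seed, bases 2 to 8 from the 5' end, is in capitals and is the stretch that pairs with targets.
hsa-miR-664a-3p: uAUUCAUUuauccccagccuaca
hsa-miR-664b-3p: uUCAUUUGccucccagccuaca
hsa-miR-6516-3p: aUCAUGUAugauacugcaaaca
hsa-miR-664a-5p: aCUGGCUAgggaaaaugauuggau
hsa-miR-664b-5p: uGGGCUAAgggagaugauugggua
hsa-miR-6516-5p: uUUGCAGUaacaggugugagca
hsa-miR-1291: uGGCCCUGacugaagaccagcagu
hsa-miR-1248: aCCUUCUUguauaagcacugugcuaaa

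No seed was shared among the 8, so that each formed a seed group of its own. The 3p arms of miR-664a and miR-664b were identical at 19 of 24 aligned positions and the 5p arms at 17 of 25, but their seeds differed. Outside the group, miR-664a-5p shared its seed with miR-4794, miR-664b-3p with miR-579-3p and miR-1291 with miR-6775-3p. The mature sequences were between 22 and 27 bases long. All 3 of the 3p arms ended in the letters ACA. Over the 2370 different mature miRNAs of the RefSeq table, 33 (1.39%) ended so.

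The parent RNAs, from GENCODE 29 transcripts (GRCh38), show where these ends fall. The mature miRNAs are in capitals, and DNA letters are used as in that file.
SNORA36B: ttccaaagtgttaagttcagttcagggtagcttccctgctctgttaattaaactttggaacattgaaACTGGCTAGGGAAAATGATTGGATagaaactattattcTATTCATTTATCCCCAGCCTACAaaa
SNORA36A: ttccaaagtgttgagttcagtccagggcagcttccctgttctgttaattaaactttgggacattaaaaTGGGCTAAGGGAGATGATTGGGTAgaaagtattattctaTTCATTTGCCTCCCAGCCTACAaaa
SCARNA16: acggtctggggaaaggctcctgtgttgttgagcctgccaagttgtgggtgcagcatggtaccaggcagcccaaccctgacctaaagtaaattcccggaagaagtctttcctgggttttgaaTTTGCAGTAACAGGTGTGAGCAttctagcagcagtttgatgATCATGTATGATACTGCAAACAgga
SNORA2C: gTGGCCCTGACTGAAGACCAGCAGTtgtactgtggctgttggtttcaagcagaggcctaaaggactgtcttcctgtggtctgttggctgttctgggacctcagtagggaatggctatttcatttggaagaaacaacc
SNORA81: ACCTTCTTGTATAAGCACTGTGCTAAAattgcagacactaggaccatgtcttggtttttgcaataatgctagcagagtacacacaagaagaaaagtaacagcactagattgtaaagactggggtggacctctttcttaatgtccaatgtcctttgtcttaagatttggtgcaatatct

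SNORA36B (chr1:220200546-220200676, minus strand) lay within RAB3GAP2 and held both arms of miR-664a. SNORA36A (chrX:154768528-154768659, plus strand) lay within DKC1, the gene of the pseudouridine synthase that works with H/ACA RNAs, and held both arms of miR-664b. SCARNA16 (chr17:77089307-77089493, plus strand) held both arms of miR-6516 and lay within SEC14L1 and the noncoding gene SNHG20. SNORA2C (chr12:48654382-48654518, minus strand) lay within KANSL2 and held miR-1291. SNORA81 (chr3:186786675-186786852, plus strand) lay within EIF4A2, which encodes a translation initiation factor, and held miR-1248. The miRNA hairpins of miR-664a and miR-1291 overlapped no exon of the host and were intronic, as was that of miR-6516 in SEC14L1. The hairpin of miR-664b overlapped 1 exon of a noncoding DKC1 transcript, that of miR-1248 2 exons of EIF4A2 transcripts with a retained intron, and that of miR-6516 2 exons of SNHG20.

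The 3p arms of miR-664a, miR-664b and miR-6516 each stopped exactly 3 bases before the 3' end of the parent RNA. Their last 3 letters thus stood where H/ACA RNAs carry the ACA box. The motif searched was ACA followed by NNN at the 3' end, on the transcribed strand, and 126 of 171 SNORA and SCARNA genes of GENCODE 29 (73.7%) had it. The matching 5p arms began at base 68 of 131 in SNORA36B, base 69 of 132 in SNORA36A and base 122 of 187 in SCARNA16, in the 3' part of each RNA. miR-1291 and miR-1248 were at the other end. miR-1291 covered bases 2 to 25 of the 137 in SNORA2C, and miR-1248 covered bases 1 to 27 of the 178 in SNORA81. The map of mature miRNAs along their parents shows the contrast between those groups.

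**Figure D1:**
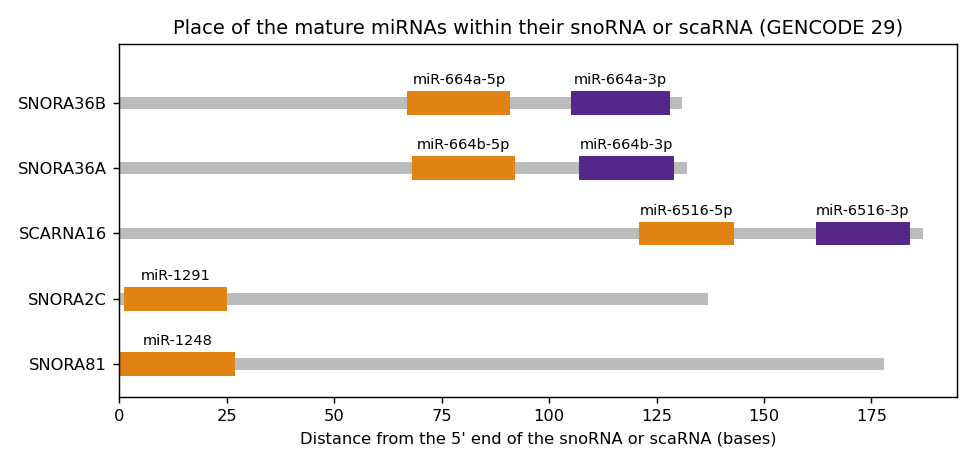
Place of the 8 mature miRNAs along the parent snoRNA or scaRNA. Grey bars are the parent RNAs drawn from their 5' end (x axis, bases), purple boxes 3p arms, and orange boxes 5p arms and miRNAs without an arm name. The 3 purple boxes stop 3 bases before the 3' end, and miR-1291 and miR-1248 sit at the 5' end.

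Some counts could have come from more than 1 gene. The whole sequence of miR-664b-3p occurred unchanged in SNORA36C (chr2:69520043-69520174), which is identical to SNORA36A at 97.0% of aligned positions, and that of miR-664b-5p occurred there with 1 mismatch. Both arms of miR-6516 had snoRNA genes outside SCARNA16 at 1 mismatch. For miR-664a-3p and miR-1291 the closest other snoRNA was 3 mismatches away, for miR-1248 2 and for miR-664a-5p 5. How reads that match several places were assigned is not given in the sources used here.

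Together the 8 miRNAs took 60.97 and 51.93 raw CPM with ethanol and 41.82 and 46.78 raw CPM without it. After TMM scaling, which corrects each library for the makeup of its counts, the sum was 53.7 and 53.0 CPM with exposure and 49.4 and 44.0 CPM without. Both exposed libraries were higher, with means of 53.4 ± 0.491 CPM (SD, n = 2) and 46.7 ± 3.85 CPM (SD, n = 2). The log2 ratio of these means was 0.19, and 0.0058 without miR-664a-3p. miR-664a made up most of this: the arms from SNORA36B held 85.7% of the summed counts, those from SCARNA16 6.67%, SNORA2C 4.80%, SNORA36A 1.66% and SNORA81 1.16%. All levels that follow are TMM-scaled CPM unless called raw, with each read counted as 1 and no division by length.

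hsa-miR-664a-3p was the most abundant of them and ranked 282 of 2656 by mean level. It was counted 749 and 578 times with ethanol and 271 and 223 times without it, or 29.7 and 23.7 CPM against 23.0 and 17.3 CPM. The groups did not overlap, but exposed replicate 2 and unexposed replicate 1 were close together. Mean levels were 26.7 ± 4.21 CPM (SD, n = 2) with ethanol and 20.2 ± 3.99 CPM (SD, n = 2) without it. In edgeR's quasi-likelihood test the exposed cells stood 0.41 higher on the log2 scale (standard error 0.28; edgeR adjusted p = 0.922). The difference was 0.24 without exposed replicate 1, 0.18 without unexposed replicate 2 and 0.62 without unexposed replicate 1. hsa-miR-664a-5p ranked 303 and was at 17.1 and 22.8 CPM with ethanol against 18.4 and 17.7 CPM without it. The exposed libraries lay on either side of the unexposed ones. Its log2 fold change was 0.14 (standard error 0.28; edgeR adjusted p = 0.975). Without exposed replicate 2 it was -0.07.

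miR-664b, the close relative from SNORA36A, was far rarer. hsa-miR-664b-3p had 9 and 11 counts with ethanol against 4 and 6 counts without it, or 0.357 and 0.452 CPM against 0.339 and 0.466 CPM. These overlapped fully. hsa-miR-664b-5p had 10 and 16 counts with ethanol against 3 and 4 counts without it, or 0.397 and 0.657 CPM against 0.254 and 0.311 CPM. The groups did not overlap. Yet in unexposed replicate 1 the raw share was 0.215 CPM with a 95% Wilson interval from 0.0732 to 0.633 CPM, which took in the raw share of 0.450 CPM of exposed replicate 1. Without exposed replicate 2 its log2 ratio of means fell from 0.90 to 0.49. Neither arm passed edgeR's filter on low counts. Fitted without that filter, the log2 fold change of miR-664b-5p was 0.89 (standard error 0.64; edgeR adjusted p = 0.932) and that of miR-664b-3p 0.015 (standard error 0.62). Both arms of miR-664a together were between 42.0 and 69.7 times as abundant as both arms of miR-664b in each library. These ratios rest on few counts, since the arms of miR-664b summed to 19 and 27 with ethanol and 7 and 10 without it. The parent snoRNAs were identical at 87.9% of aligned positions.

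hsa-miR-1291, from the 5' end of SNORA2C, had 55 and 47 counts with ethanol against 34 and 46 counts without it, or 2.18 and 1.93 CPM against 2.88 and 3.57 CPM. Both exposed libraries were below both unexposed libraries. The log2 fold change was -0.65 (standard error 0.31; edgeR adjusted p = 0.922). By library size alone it was -0.51, and unexposed replicate 1, at a raw share of 2.44 CPM, was then below exposed replicate 1, at 2.47 CPM.

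hsa-miR-1248, from the 5' end of SNORA81, had 11 counts in both exposed libraries, against 12 and 10 counts without ethanol. The raw counts were nearly equal, and the scaled levels, 0.436 and 0.452 CPM against 1.02 and 0.777 CPM, were higher in the shallower, unexposed libraries. The log2 fold change was -0.998 (standard error 0.42; edgeR adjusted p = 0.922). The raw shares had 95% Wilson intervals of 0.276 to 0.886 CPM and 0.247 to 0.792 CPM with ethanol, against 0.492 to 1.50 CPM and 0.449 to 1.52 CPM without it. Each exposed interval overlapped each unexposed one. These intervals cover counting error only and not the spread between cultures. No molecular identifiers are described for these reads, so copies of the same molecule may have been counted more than once.

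hsa-miR-6516-3p, which ends in the ACA letters of SCARNA16, had 10 and 12 counts with ethanol against 10 and 15 counts without it. After scaling it was at 0.397 and 0.493 CPM against 0.848 and 1.17 CPM, with both exposed libraries below both unexposed ones. The log2 fold change was -1.18 (standard error 0.43; edgeR adjusted p = 0.922). hsa-miR-6516-5p, the other arm of that precursor, had 80 and 60 counts with exposure and 32 and 34 counts without, or 3.17 and 2.46 CPM against 2.71 and 2.64 CPM. The exposed libraries lay above and below the unexposed ones, and the log2 fold change was 0.075 (standard error 0.32; edgeR adjusted p = 0.983), with a sign that changed under upper quartile scaling.

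**Figure D2:**
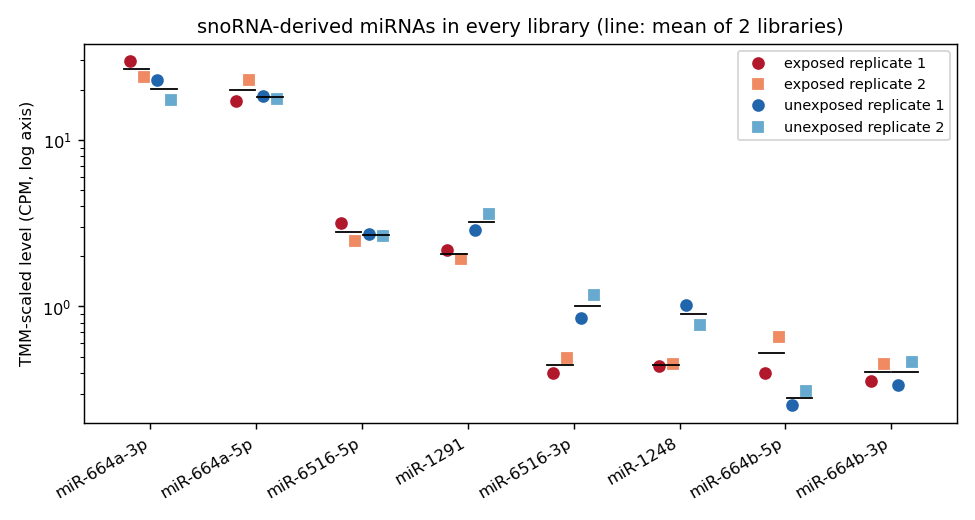
TMM-scaled level of the 8 miRNAs (y axis, CPM, log axis) in the exposed (red) and unexposed (blue) libraries, in order of mean level. Each point is 1 library and each black line the mean of 2. Both arms of miR-664a lie between 17.1 and 29.7 CPM, and the 4 rarest miRNAs near or under 1 CPM.

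By mean level over all 4 libraries the order was miR-664a-3p, miR-664a-5p, miR-6516-5p, miR-1291, miR-6516-3p, miR-1248, miR-664b-5p and miR-664b-3p. It differed between the groups. By group means, miR-664b-5p (0.527 CPM) stood above miR-6516-3p (0.445 CPM) and miR-1248 (0.444 CPM) with ethanol. Without it, miR-1291 (3.23 CPM) stood above miR-6516-5p (2.68 CPM). The first of these rested on exposed replicate 2. In exposed replicate 1 miR-664b-5p had 10 counts, as did miR-6516-3p, and miR-1248 had 11. With both groups pooled, the ranges over the 4 libraries overlapped within the arms of miR-664a and between miR-6516-5p and miR-1291. They also overlapped between miR-6516-3p and miR-1248, between miR-1248 and miR-664b-5p, and between the arms of miR-664b. Within 1 group the ranges could lie apart. miR-6516-5p was above miR-1291 in both exposed libraries (3.17 and 2.46 CPM against 2.18 and 1.93 CPM). It was below miR-1291 in both unexposed ones (2.71 and 2.64 CPM against 2.88 and 3.57 CPM). In unexposed replicate 1 these were 32 counts of miR-6516-5p against 34 counts of miR-1291. The arms of miR-664a lay apart with ethanol only. Without ethanol only, miR-1248 lay apart from miR-664b-5p, and so did the arms of miR-664b from each other. The latter rested on 4 and 6 counts of the 3p arm against 3 and 4 counts of the 5p arm. The gap between miR-664a-5p (17.1 CPM at its lowest) and miR-6516-5p (3.17 CPM at its highest) held in every library, as did that between miR-1291 (1.93 CPM at its lowest) and miR-6516-3p (1.17 CPM at its highest).

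Read as a group, 6 of the 8 miRNAs were tested. Of these, 3 were higher and 3 lower in the exposed cells, and 2, miR-1248 and miR-6516-3p, had an unadjusted P under 0.05, against 4.52% of the 863 miRNAs tested. No weight can be put on that count, nor on the other counts and the median over these 6 given here. Neither of the 2 reached the filter's level in an exposed library, so that each was tested through the unexposed libraries, where it was higher, and a miRNA that entered in this way had to differ. Both kept an unadjusted P under 0.05 in limma-voom. In edgeR both kept it with the size factors of DESeq2, upper quartile scaling, no filter, or 10 counts in every library. Neither kept it in DESeq2 or with library size as the only scaling. None of the 6 was past an adjusted p of 0.05, as for 0.0% of all tested miRNAs (0 miRNAs in edgeR, against 39 with an unadjusted P under 0.05; 0 against 31 in limma-voom and 0 against 28 in DESeq2). Their adjusted p values in edgeR were between 0.922 and 0.983. Both exposed libraries lay on one side of both unexposed ones for 4 of the 6, where this held for 33.4% of all tested miRNAs, and an exact permutation test of 2 libraries against 2 cannot give a two-sided p under 0.333. The median log2 fold change was -0.29 over the 6 and -0.010 over all tested miRNAs. The plot of fold changes shows the 6 values beside those of all tested miRNAs.

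**Figure D3:**
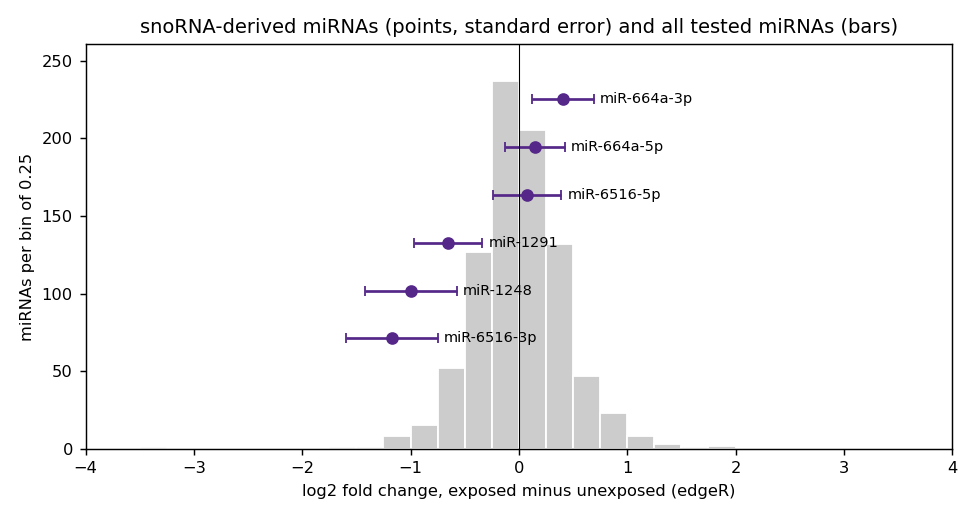
log2 fold change between exposed and unexposed cells (x axis) of all 863 tested miRNAs (grey bars, number of miRNAs per bin) and of the 6 tested snoRNA-derived miRNAs (purple points with standard error, placed at arbitrary heights). miR-6516-3p, miR-1248 and miR-1291 lie below 0 and the other 3 above it.

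The balance of the arms does not depend on library scaling, but it comes from the same counts and the same contrast as the values above and is likewise a description. It was taken as the log2 of 3p over 5p counts, with 0.5 added to each. In most precursors one arm is far more abundant than the other. Among 251 precursors with at least 15 counts of each arm over the 4 libraries, the median fold between arms was 9.50. The arms of miR-664a were nearly even, with 1.74 and 1.04 counts of the 3p arm per count of the 5p arm with ethanol and 1.25 and 0.978 without it. Of the 251 precursors, 20 (7.97%) stayed within 2-fold in every library, and miR-664a was one of them. miR-664b was another, with 0.900 and 0.688 with ethanol and 1.33 and 1.50 without it.

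miR-6516 was uneven and favoured the 5p arm. The 3p arm had 0.125 and 0.200 counts per count of the 5p arm with ethanol and 0.313 and 0.441 without it. Both exposed libraries were lower. The mean log2 ratio was -2.61 ± 0.47 (SD, n = 2) with exposure and -1.39 ± 0.34 (SD, n = 2) without, a difference of -1.21. Of the 251 precursors, 9 had a larger difference in size, but the 3p arm of miR-6516 had only 10 to 15 counts per library. For miR-664b the difference was -0.78, on 3 to 16 counts of each arm per library, and the groups did not overlap either. For miR-664a it was 0.28 with overlapping groups, and without exposed replicate 1 it was -0.09. The groups did not overlap for 29.1% of the precursors. Two-sided exact permutation tests gave p = 0.333 for miR-6516 and for miR-664b, the smallest possible here, and 0.667 for miR-664a.

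**Figure D4:**
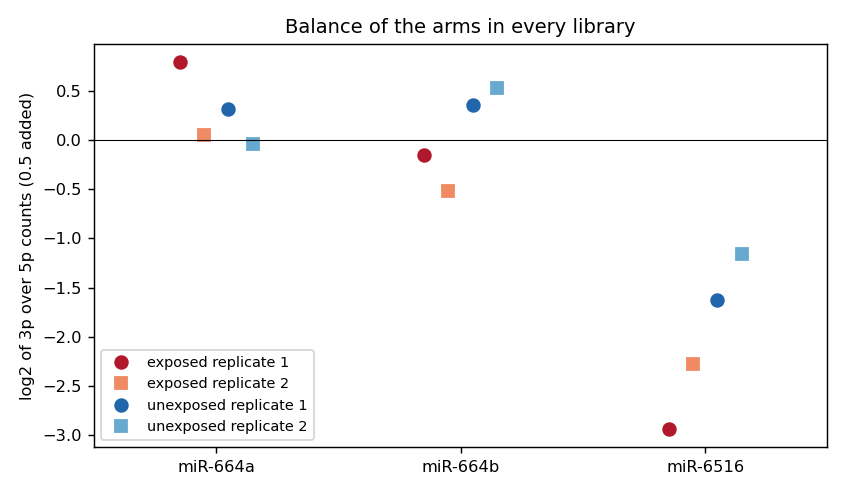
log2 of 3p over 5p counts (y axis, 0.5 added to each count) for the 3 precursors with both arms counted; each point is 1 exposed (red) or unexposed (blue) library. miR-664a and miR-664b lie within 1 of 0, while miR-6516 lies between -2.94 and -1.15, with the exposed libraries lowest.

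Among the 2367 counted miRNAs with a RefSeq entry, the others that lay in snoRNA or scaRNA genes on the same strand were miR-1843 and miR-3651. miR-1843 lay at bases 82 to 101 of the 143 in SCARNA3, in an intron of COP1. It was at 178 and 176 CPM with ethanol and 165 and 153 CPM without it, above each of the 8 miRNAs described here, and its log2 fold change was 0.16 (standard error 0.21; edgeR adjusted p = 0.968). miR-3651 covered the last 24 bases of SNORA84 and had at most 5 counts in a library, too few to be tested. miR-3653, in SNORD125, was not analysed here.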

How the data were processed

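The deposited values are raw read counts of mature miRNAs, which the authors obtained with CAP-miRseq (version not given in the sources used here) from NEBNext small RNA libraries and did not normalize. The build named in the submitters' processing notes is hg19. The counts carry no coordinates, so positions are those of GRCh38 in GENCODE 29 and RefSeq (GRCh38.p14), matched by name. Groups and replicate numbers came from the sample labels. The members and lists were chosen with earlier results of these data known.

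Counts were filtered with filterByExpr (minimum count 10, minimum total 15, 863 miRNAs kept), scaled by TMM and compared by edgeR 4.0.16's quasi-likelihood test in R 4.3.3 with Benjamini-Hochberg adjustment over all 863. The fit was checked on simulated data. Standard errors beside edgeR fold changes were derived as the absolute log2 fold change over the square root of the F statistic. limma-voom 3.58.1 and DESeq2 1.42.0, other scalings, other filters, a replicate block and leaving out each library were alternatives. The miRNAs named were all listed members and every other counted miRNA with a RefSeq entry that lay in a snoRNA or scaRNA gene. RefSeq held 2367 of the 2656 counted miRNAs, and the rest were not screened. A share of 3 counts, between 0.121 and 0.248 CPM, was taken as the smallest distinguishable from 0. Nothing states that the duplicate cultures were separate differentiations, so P values measure the spread between these samples. The replicates were not copies, since over tested miRNAs they differed by a median absolute log2 of 0.28 (exposed) and 0.41 (unexposed).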

Additional observations from a re-analysis of the deposited data

How the results depend on the processing

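miR-1248 and miR-6516-3p had 10 to 15 counts per library, and the unexposed libraries were the shallower ones. Whether depth plays a part in their differences was not tested. Of the 2 miRNAs with an unadjusted P under 0.05, 0 remained with DESeq2, with library size only or with CPM above 1 in 2 libraries (a filter that removes both from testing), and 0 without exposed replicate 1, without exposed replicate 2 or without unexposed replicate 2. Counted over the tested members, the number ranged from 0 to 2 with each library left out, and the 2 without unexposed replicate 1 were miR-6516-3p and miR-1291, not miR-1248. A lone library is assumed there to vary like the others. Over all tested miRNAs the 39 became 94 with no filter and ranged from 12 without exposed replicate 1 to 109 without unexposed replicate 2, with 99 without unexposed replicate 1. miR-1248 and miR-6516-3p both kept an unadjusted P under 0.05 in limma-voom. In edgeR they kept it with the size factors of DESeq2, upper quartile scaling, no filter, or 10 counts in every library. All of these are refits of the same libraries. Under the main filter both entered only through the unexposed libraries, where they were higher, so no weight can be put on this. With the replicate block the 39 became 25, and 1 of the snoRNA-derived miRNAs, miR-6516-3p, was left. Deviations from the group means correlated at -0.186 (863 miRNAs) between libraries of equal number. No label ties the numbers to a shared culture or day, so whether the numbers pair the samples is not known. With the crossed replicate block, chosen after seeing the data, the counts were 59 and 1.

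The median log2 fold change of the tested members became 0.11 with CPM above 1 in 2 libraries, which leaves 4 of them. The log2 fold change of miR-664a-3p ranged from 0.18 without unexposed replicate 2 to 0.62 without unexposed replicate 1. That of miR-664a-5p ranged from -0.073 without exposed replicate 2 to 0.34 without exposed replicate 1, and that of miR-6516-5p was -0.036 with upper quartile scaling and between -0.12 and 0.25 with each library left out. The arm difference of miR-664a ranged from -0.088 to 0.65 with each library left out. The log2 ratio of the summed level was 0.19, and became 0.35 as a share of the raw total, 0.0058 without miR-664a-3p and between 0.11 and 0.28 with each library left out. For each other change the cause was not tested. The log2 ratio of miR-664b-3p, near 0, ranged from -0.21 to 0.25 with each library left out. miR-1291 passed the unadjusted threshold with upper quartile scaling and without unexposed replicate 1. Every other single miRNA or arm difference kept its sign under the alternatives run.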

Other observations

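A pair of other classes that bypass part of the usual miRNA processing was set beside the snoRNA-derived miRNAs. Of 20 miRNAs from short-intron mirtrons, whose hairpin ends are made by splicing, 9 were tested, of which 7 were higher and 2 lower in the exposed cells with a median log2 fold change of 0.11, and 2 had groups that did not overlap. Of 6 miRNAs of the miR-320 family, 5 were tested, of which 2 were higher and 3 lower with a median of -0.12, and 2 had groups that did not overlap. The groups did not overlap for 33.4% of all tested miRNAs. In edgeR, 0 of either class had an unadjusted P under 0.05, against 4.52% of all tested miRNAs. The median level was 0.203 CPM over the mirtron miRNAs and 56.9 CPM over the miR-320 family. Whether these classes differ from the snoRNA-derived miRNAs was not tested.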
